A study of Mus musculus with 6 samples.

Results

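Heat shock chaperones are proteins that help others fold, keep them from clumping and guide damaged ones to refolding or breakdown. HSP70 proteins bind exposed stretches of a client, J proteins deliver clients and start ATP hydrolysis, and nucleotide exchange factors release them. HSP90 then acts late on kinases, receptors and other signalling clients, while HSF1, the transcription factor that chaperones hold inactive in resting cells, assembles into trimers under stress and switches on many of these genes through inverted GAA repeats, the heat shock elements.

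The genes described here are 9 chaperone genes, Hspa1a, Hspa1b, Hspa8, Hsph1, Dnajb1, Hsp90aa1, Hspb1, Hspd1 and Hspe1, and their regulator Hsf1. They were chosen by gene symbol, and each symbol matched 1 gene, giving 10 of the 55401 genes listed. Although grouped as cytosolic chaperones, they are not all cytosolic. Hspd1 and Hspe1 encode the mitochondrial chaperonin HSP60 and its lid HSP10, and Hsf1 encodes no chaperone.

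Polyadenylated RNA was sequenced from NIH3T3, an established line of mouse embryonic fibroblasts labelled WT in genotype. There were 3 libraries of cells given IPRN and 3 of cells given DMSO, its vehicle. The series' design text says that the cells were induced with hydrogen peroxide and TGF-β, as a model of cancer-associated fibroblasts, before IPRN was tested for the pathways it affects. The sample labels name IPRN or DMSO only, so they do not say whether every library had that induction, nor the dose, the duration or how IPRN relates to angelicin, which the series' title names. They also do not say that replicates were separate cultures, so the p-values rest on a spread between libraries that may be technical only.

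Library totals ran between 60320282 and 78629444 counts. All 10 fibroblast markers were present in every library, at a summed 19680 to 23560 CPM (counts scaled to a common library size). Transcripts of other cells were present unequally: Alb, the liver's albumin, had 3051, 1018 and 12 counts in IPRN 1, 2 and 3, against 0, 1544 and 899 in DMSO 1, 2 and 3. Of 22 hepatocyte markers, 14 were at 0 in IPRN 3 and 14 in DMSO 1, and their summed level was 23.4 to 149.9 CPM in IPRN and 45.3 to 115.0 CPM in DMSO. The lowest sums, in IPRN 3 and DMSO 1, came mostly from 1 marker, Hp. It had 15.3, 16.0 and 15.0 CPM in IPRN 1, 2 and 3, against 39.4, 40.9 and 41.2 CPM in DMSO 1, 2 and 3, and so did not follow Alb. The 6 macrophage markers summed to 20.9, 20.6 and 128.3 CPM in IPRN, against 13.2, 21.6 and 24.1 CPM in DMSO, with none at 0 in IPRN 3. IPRN 3 and DMSO 1 thus stand apart from the other libraries, and values without them are given where they bear on a result.

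IPRN cells had less Hsp90aa1 mRNA than DMSO cells, and the other 9 genes did not pass the test. All 10 genes passed the filter on low counts. In edgeR's quasi-likelihood test with Benjamini-Hochberg adjustment over all genes, 1 of the 10 fell and 0 rose, where 5.47% of the 17159 genes tested were called, 3.01% lower and 2.46% higher in IPRN. At an unadjusted p under 0.05 edgeR had 3 of the 10, Hsp90aa1 and Hspd1 lower and Hspb1 higher, where 22% of all genes tested passed. DESeq2 called 2 of the 10 lower, Hsp90aa1 and Hspd1, where it called 8.78% of its genes lower, and 0 higher. Hspb1 had no adjusted p in DESeq2, so it could not be called there. The median log2 fold change of the 10 was -0.05, against 0.00156 over all genes tested, whose quartiles were -0.20 and 0.20. Without DMSO 1 and IPRN 3 together, only 53 genes were called over all genes, and none of the 10 was. The log2 value of Hsp90aa1 was -0.38 in that fit.

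**Figure D1:**
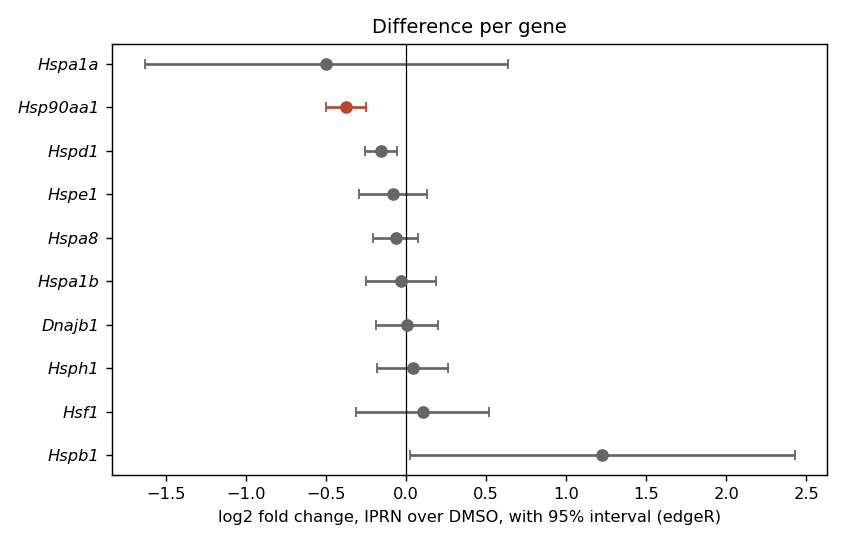
Log2 fold change of each gene, IPRN over DMSO, with its 95% interval from edgeR (n = 3 libraries each), and the called gene in red. Hsp90aa1 sits at -0.37 with a narrow interval, while the intervals of Hspa1a and Hspb1 are the widest of the 10.

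The levels spanned 3 orders of magnitude. On the deposited FPKM scale, which divides counts by gene length, the means over all 6 libraries were 489 for Hspd1, 284 for Hspa8, 278 for Hspe1 and 205 for Hsp90aa1. Dnajb1 at 24.6, Hsph1 at 19.97, Hspa1b at 8.07, Hsf1 at 4.60, Hspa1a at 1.38 and Hspb1 at 0.373 followed. The ranges over all 6 libraries overlapped for Hspa8 and Hspe1, for Hspe1 and Hsp90aa1, and for Hspa1a and Hspb1. Within each library, though, Hspe1 was above Hsp90aa1 and Hspa1a above Hspb1. The rank of Hspa8 is uncertain, since Gm15459, a pseudogene nearly identical to its coding sequence, averaged 585 FPKM over all 6 libraries. Their counts cannot be told apart, as described below. The levels and shares given here leave out all copies of the 10 genes. Per length, mRNAs of the constitutive and mitochondrial chaperones were thus far more abundant than those of the stress-inducible HSP70 pair. Together the 10 genes held 0.406, 0.426 and 0.439% of all counts in IPRN 1, 2 and 3, against 0.469, 0.475 and 0.462% in DMSO 1, 2 and 3, without overlap. Hspd1, Hspa8, Hsp90aa1 and Hspe1 made up 92.9% of those counts, and the other 6 genes summed to 319 ± 16.6 CPM in IPRN and 313 ± 16.4 CPM in DMSO (SD, n = 3 each).

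**Figure D2:**
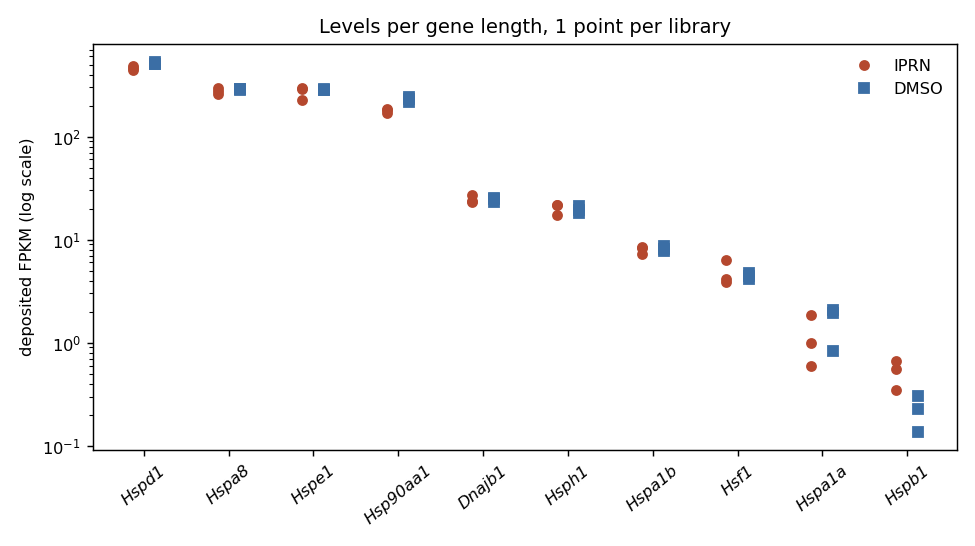
Deposited FPKM of each gene on a log axis, with 1 point per library, IPRN as circles and DMSO as squares (3 libraries each). Hspd1, Hspa8, Hspe1 and Hsp90aa1 lie above 100, the inducible Hspa1a and Hspa1b below 10, and Hspb1 lowest.

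Hsp90aa1 (ENSMUSG00000021270, chr12:110690605-110702728, minus strand, GRCm38) encodes HSP90α, the stress-responsive form of the cytosolic HSP90 that matures kinases and steroid receptors. After TMM normalisation, its level was 757, 801 and 786 CPM in IPRN 1, 2 and 3, against 1007, 1064 and 961 CPM in DMSO 1, 2 and 3. Every IPRN library lay below every DMSO library, which holds, in this direction, for 14.7% of all genes tested. The fold change was 0.773, a log2 value of -0.37 ± 0.053 (SE; 95% interval -0.50 to -0.25), with an edgeR adjusted p of 0.016. The call was lost without DMSO 1 (adjusted p = 0.079), DMSO 2 (0.0764), IPRN 2 (0.0518) or IPRN 3 (0.0542), though the log2 value stayed between -0.41 and -0.33 in all 6 such fits. Among the 4 libraries with liver transcripts the log2 value was -0.38 (edgeR adjusted p = 0.208), and between IPRN 3 and DMSO 1 the log2 difference was -0.36. With a term for liver transcripts the edgeR adjusted p was 0.043.

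Hsp90ab1, which encodes the constitutive HSP90β, did not pass the test. Its level was 3470, 3153 and 3439 CPM in IPRN libraries, against 2981, 3361 and 3400 CPM in DMSO libraries. The groups overlapped, and the log2 fold change of 0.05 ± 0.066 (SE, edgeR adjusted p = 0.759) became -0.012 without DMSO 1. Per gene length it was the more abundant HSP90 mRNA in every library. The ratio of Hsp90ab1 to Hsp90aa1 FPKM was 6.01, 5.16 and 5.74 in IPRN, against 3.88, 4.14 and 4.64 in DMSO, without overlap. This ratio shows only that the levels of these 2 genes differed unequally between the groups.

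By a fixed measure of likeness, the Pearson correlation of log2 CPM with Hsp90aa1 over the 6 libraries, the nearest genes with at least 5 CPM were Tra2b (r = 0.998), Atf1 (r = 0.998) and Serinc1 (r = 0.995). The 6 points share their libraries and the split by treatment. Tra2b, a splicing factor gene, averaged 157 ± 3.4 CPM in IPRN and 188 ± 5.2 CPM in DMSO (SD, n = 3 each). Atf1, which encodes a CREB-family transcription factor, averaged 58.9 ± 1.8 CPM in IPRN and 71.9 ± 2.8 CPM in DMSO. Serinc1, a membrane protein gene, averaged 297 ± 5.0 CPM in IPRN and 334 ± 9.7 CPM in DMSO.

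**Figure D3:**
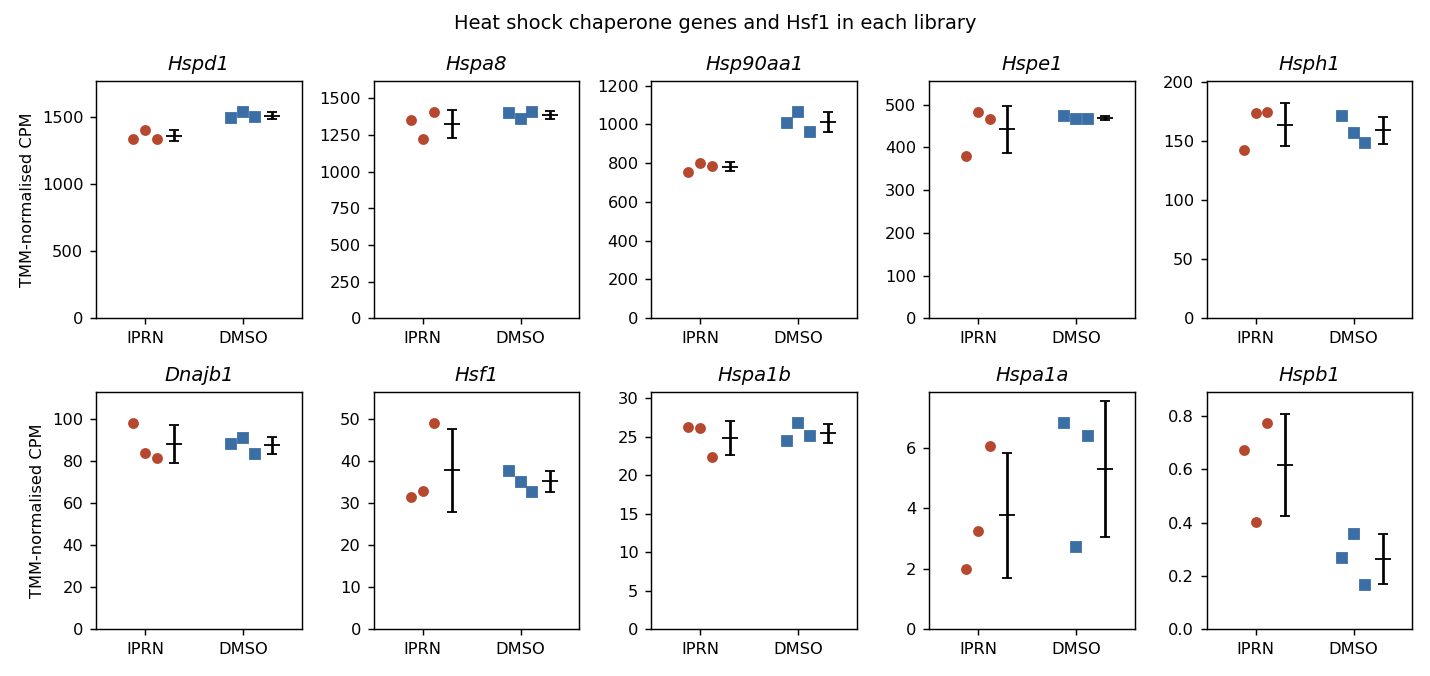
TMM-normalised CPM of each gene in each library, IPRN left and DMSO right, with the mean and SD of the 3 libraries as a black mark beside the points and each axis starting at 0. The Hsp90aa1 and Hspd1 groups are separate with IPRN lower, Hspb1 is separate at under 1 CPM with IPRN higher, and the other groups overlap.

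Hspa8 (ENSMUSG00000015656, chr9:40800984-40810087, plus strand) encodes HSC70, the constitutive HSP70 that folds new proteins and uncoats clathrin vesicles. Its level was 1353, 1222 and 1407 CPM in IPRN libraries, against 1401, 1358 and 1405 CPM in DMSO libraries. The groups overlapped, and the log2 fold change was -0.06 ± 0.059 (SE; 95% interval -0.21 to 0.08; edgeR adjusted p = 0.611).

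That value rests on how reads were divided between Hspa8 and a processed pseudogene, Gm15459 (ENSMUSG00000100801, chr5:5781615-5783555, minus strand), whose 1941 bases match the Hspa8 coding sequence at 1936 positions (99.7%). The differences, counted from base 1 of the start codon, are G114A, C414T, C549T, G1222A and C1440T. Bases 84 to 143 of both, from GENCODE M21 transcripts, are shown because they hold 1 of those 5 differences, in capitals, and are otherwise the same 60 letters.
Hspa8: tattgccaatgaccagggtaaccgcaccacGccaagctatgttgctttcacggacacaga
Gm15459: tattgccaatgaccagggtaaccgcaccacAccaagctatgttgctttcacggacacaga

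Gm15459 was listed with 75746, 90943 and 70304 counts in IPRN libraries, against 83578, 99840 and 112713 in DMSO libraries. This is close to Hspa8's own 96468, 91166 and 90651 counts in IPRN libraries, against 84140, 98854 and 110248 in DMSO libraries. In CPM, Gm15459 was lower in every IPRN library (1063, 1219 and 1091) than in any DMSO library (1391, 1372 and 1437), with a log2 fold change of -0.32 ± 0.061 (SE, edgeR adjusted p = 0.0353). How reads that fit both were assigned is not given in the sources used here, so the counts of these 2 genes cannot be told apart. Gm15459 was named after its values were seen.

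Hspa8 was therefore also summed with its 8 listed copies, an alternative chosen after seeing the data. A further gene model that shares Hspa8 sequence, Gm26825, which GENCODE M21 places over Gm15459 on the opposite strand, was not analysed here and is not in the sum. The sum was 2461, 2468 and 2584 CPM in IPRN libraries, against 2825, 2785 and 2872 CPM in DMSO libraries, and 49.1% of its counts came from the copies. The groups no longer overlapped, and the log2 fold change was -0.18 ± 0.040 (SE; 95% interval -0.27 to -0.08), against -0.06 for Hspa8 alone, with an edgeR adjusted p of 0.0538. It missed the threshold, while the copy alone passed it.

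**Figure D4:**
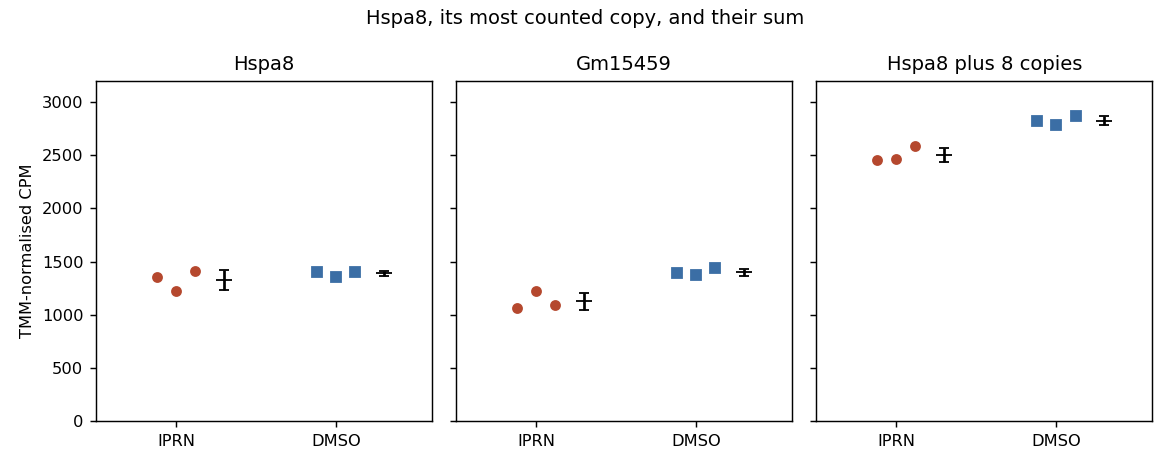
TMM-normalised CPM of Hspa8, of Gm15459 and of Hspa8 with its 8 listed copies, IPRN left and DMSO right, with the mean and SD of 3 libraries as a black mark. Hspa8 alone overlaps between the groups, while Gm15459 and the sum are lower in all 3 IPRN libraries than in any DMSO library.

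The same step changed little for the other genes with counted copies. Hsp90aa1 with its 3 listed copies, which held 6.3% of the summed counts, had a log2 fold change of -0.38 ± 0.051 (SE, edgeR adjusted p = 0.0133). Hspd1 with 2 copies, which held 2.34%, had -0.16 ± 0.041 (SE, edgeR adjusted p = 0.0685). As a measure of exposure, 63.4% of the 100-base runs in the Hspa8 transcript also occur in another gene's transcript, 56.5% for Hspa1a, 49.9% for Hspa1b, 47.5% for Hsp90aa1, 42.7% for Hspb1, 26.9% for Hspd1 and 22.4% for Hspe1. Hsph1, Dnajb1 and Hsf1 had 0, so no run of that length in them is shared.

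Hspa1a (ENSMUSG00000091971, chr17:34969190-34972156, minus strand) and Hspa1b (ENSMUSG00000090877, chr17:34956436-34959238, minus strand) encode the near-identical inducible HSP70 proteins, classic readouts of HSF1 activity. Their promoters are shown because the genes share almost all of that sequence yet were listed at different levels. Over the 250 bases before the start, RefSeq's GRCm38.p6 windows are identical at 247 (98.8%). The Hspa1a stretch, at chr17:34972157-34972406 on the minus strand, outside any GENCODE M21 gene, is printed with a pair of facing heat shock units, GAANNTTC, in capitals.
Hspa1a: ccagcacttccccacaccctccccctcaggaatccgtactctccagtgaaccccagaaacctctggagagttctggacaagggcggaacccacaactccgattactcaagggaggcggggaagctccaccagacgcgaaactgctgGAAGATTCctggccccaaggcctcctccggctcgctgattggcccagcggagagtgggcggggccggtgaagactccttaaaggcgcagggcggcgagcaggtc
Hspa1b, at chr17:34959239-34959488 on the same strand, differs from it by C44T, T47C and T249G, counted from the first base printed, and holds the same pair.

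Hspa1b was listed with 26.2, 26.1 and 22.4 CPM in IPRN libraries, against 24.4, 26.9 and 25.1 CPM in DMSO libraries. The groups overlapped, and the log2 fold change was -0.03 ± 0.092 (SE; 95% interval -0.25 to 0.19; edgeR adjusted p = 0.897). Hspa1a was lower and far more uneven, with 142, 243 and 390 counts in IPRN 1, 2 and 3, against 411, 198 and 501 in DMSO 1, 2 and 3. In CPM these values were 1.99, 3.26 and 6.06 in IPRN and 6.84, 2.72 and 6.39 in DMSO. The highest CPM was 3.04 times the lowest within IPRN and 2.51 times the lowest within DMSO, so the log2 fold change of -0.50 ± 0.479 (SE; 95% interval -1.63 to 0.64; edgeR adjusted p = 0.629) cannot show a direction.

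Aligned end to end, the transcripts of the pair are identical in 2592 of 2992 columns (86.6%), and 214 of the 2992 are gaps. The ratio of Hspa1b to Hspa1a FPKM ranged between 3.91 and 14.0 in IPRN and between 3.78 and 10.4 in DMSO. How reads that fit both were assigned is not given in the sources used here, so the split within the pair is uncertain. Summed, Hspa1a and Hspa1b held 2012, 2192 and 1830 counts in IPRN libraries, against 1877, 2152 and 2473 in DMSO libraries. The summed CPM was much steadier, at 28.2, 29.4 and 28.4 in IPRN and 31.3, 29.6 and 31.5 in DMSO. The sum had a log2 fold change of -0.10 ± 0.068 (SE, edgeR adjusted p = 0.454). Every IPRN library was lower by a small margin, and the difference did not pass the test. Hspa1a also overlaps Gm20481 on the opposite strand, which had 0 counts.

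Hsph1 (ENSMUSG00000029657, chr5:149614287-149636376, minus strand) encodes HSP110, a nucleotide exchange factor for HSP70. It had 143, 174 and 175 CPM in IPRN libraries, against 172, 157 and 148 CPM in DMSO libraries, which overlapped. Its log2 fold change was 0.04 ± 0.094 (SE; 95% interval -0.18 to 0.27; edgeR adjusted p = 0.856), and it became -0.0084 without IPRN 3. Dnajb1 (ENSMUSG00000005483, chr8:83608193-83612653, plus strand) encodes HSP40, the inducible J protein that delivers clients to HSP70. Its values were 98.3, 84.0 and 81.5 CPM in IPRN libraries, against 88.1, 91.1 and 83.3 CPM in DMSO libraries, which overlapped. The log2 fold change was 0.0071 ± 0.082 (SE; 95% interval -0.19 to 0.20; edgeR adjusted p = 0.977) and was -0.00025 under upper-quartile scaling. No bound of either interval lay beyond 0.27 on the log2 scale.

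Hspd1 (ENSMUSG00000025980, chr1:55077835-55088243, minus strand) and Hspe1 (ENSMUSG00000073676, chr1:55088132-55091307, plus strand) lie head to head and share their promoter region. The HSP60 ring and its HSP10 lid fold proteins imported into mitochondria. The 30 bases that hold a run of facing heat shock units, in capitals, are shown because they lie within the RefSeq windows of both genes, at chr1:55088053-55088082, printed on the strand of Hspe1. They end 66 bases before the RefSeq start of Hspe1, and GENCODE M21 annotates them as an untranslated exon of Hspd1.
Hspe1: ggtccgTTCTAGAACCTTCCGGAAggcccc

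Hspd1 had 1338, 1408 and 1336 CPM in IPRN libraries, against 1495, 1540 and 1505 CPM in DMSO libraries. The groups did not overlap, and the log2 fold change was -0.15 ± 0.042 (SE; 95% interval -0.25 to -0.05). The edgeR adjusted p of 0.0863 missed the threshold, while DESeq2 gave an adjusted p of 0.0187, where DESeq2 called 18% of the 12816 genes it adjusted. Hspe1 had 379, 483 and 465 CPM in IPRN libraries, against 474, 465 and 466 CPM in DMSO libraries. IPRN 1 alone lay below the DMSO range, the log2 fold change was -0.08 ± 0.090 (SE; 95% interval -0.30 to 0.13; edgeR adjusted p = 0.677), and it was 0.018 without IPRN 1. The 2 genes share part of an exon on opposite strands, and since the protocol marks no strand, reads from that stretch cannot be separated.

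Hspb1 (ENSMUSG00000004951, chr5:135887919-135889563, plus strand) encodes HSP25, the mouse form of HSP27, a small holdase that binds unfolding proteins and actin. It was nearly absent, with 48, 30 and 50 counts in IPRN libraries, against 16, 26 and 13 in DMSO libraries. In CPM this was 0.673, 0.402 and 0.776 in IPRN and 0.266, 0.357 and 0.166 in DMSO, without overlap, which holds for 14.9% of all genes tested in this direction. The log2 fold change was 1.23 ± 0.508 (SE; 95% interval 0.02 to 2.43), with an edgeR adjusted p of 0.219, so it did not pass the test.

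Hsf1 (ENSMUSG00000022556, chr15:76477422-76501913, plus strand) is controlled mainly at the protein level, so its mRNA is no readout of its activity. Its level was 31.3, 32.8 and 49.04 CPM in IPRN 1, 2 and 3, against 37.7, 34.9 and 32.6 CPM in DMSO 1, 2 and 3. The high IPRN 3 value, in the library with the most macrophage marker transcripts, set the sign. The log2 fold change was 0.11 ± 0.175 (SE; 95% interval -0.31 to 0.52; edgeR adjusted p = 0.803) and -0.13 without IPRN 3. What part the macrophage transcripts had in this was not tested.

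RefSeq windows, 250 bases before to 50 after a start, were at hand for 7 of the 10 genes, all but Hspa8, Hsp90aa1 and Hsf1. Of these 7, 6 held the pair GAANNTTC or its other phase TTCNNGAA, each of which reads the same on both strands, and so did 17% of the 27025 genes with a window. The longer run of 3 facing units, GAANNTTC followed by NNGAA or TTCNNGAA followed by NNTTC, each the other's reverse complement and each containing a pair, was in 3 of the 7, Hsph1, Hspd1 and Hspe1, and in 0.662% of all genes with a window. Hspd1 and Hspe1 count the same site. Among 81 other chaperone and heat shock genes with a window, 19 held the pair and 2 the longer run. A match describes letters and is no evidence of binding.

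The wider chaperone network was read from 10 lists holding 101 other genes, all found in the tables and 97 tested. Of these, 9 fell, 2 rose and 86 did not pass in edgeR's test (9.28% lower, against the 3.01% of all genes tested given above), with a median log2 fold change of -0.08 over the 97. Negative log2 fold changes numbered 64 of the 97, where 49.8% of all genes tested had one. All 11 calls were kept in the fit without IPRN 1. The fits without DMSO 1, DMSO 2, DMSO 3 or IPRN 3 each kept 0 of them, and that without IPRN 2 kept Stub1 alone. Calls over all genes also varied, from 938 with all libraries to between 133 and 1047 with 1 left out. The log2 values of the 11 genes moved little and none changed sign in these 6 fits. Their ranges were -0.32 to -0.27 for Cct5, -0.18 to -0.17 for Hspa4, 0.23 to 0.26 for Bag6 and, the widest, -0.89 to -0.64 for Cryab. With a term for liver transcripts the differences were about as large, at -0.34 for Ppid, -0.30 for Cct5, -0.27 for Hspa9 and -0.79 for Cryab. Stub1 passed the threshold there, and the other 10 had edgeR adjusted p-values of 0.0507 to 0.103. The values below are those of all 6 libraries.

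Among the HSP70 and HSP110 relatives, 2 of 8 tested genes fell, 0 rose, and 7 of 8 log2 fold changes were negative, with a median of -0.22. Hspa4, the APG-2 exchange factor, had 528, 536 and 527 CPM in IPRN libraries, against 597, 598 and 602 CPM in DMSO libraries. Its log2 fold change was -0.18 ± 0.039 (SE, edgeR adjusted p = 0.049), a call lost with library totals alone as scaling (adjusted p = 0.058). Hspa4l, its close relative APG-1, averaged 60.4 CPM in IPRN and 77.2 CPM in DMSO, with an edgeR adjusted p of 0.0431. With no filter on low counts both calls were lost (edgeR adjusted p = 0.0944 for Hspa4 and 0.0608 for Hspa4l).

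Among 12 other mitochondrial chaperones and proteases, 1 fell and the median log2 fold change was 0.06. That gene was Hspa9, the mitochondrial HSP70 mortalin that hands imported proteins on to HSP60, with 631, 681 and 661 CPM in IPRN libraries, against 792, 808 and 788 CPM in DMSO libraries. Its log2 fold change was -0.28 ± 0.045 (SE, edgeR adjusted p = 0.0238), and the groups did not overlap.

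TRiC, the cytosolic chaperonin ring that folds actin and tubulin, and prefoldin, which feeds it, had 14 genes tested. Of these, 2 fell, 0 rose, 12 had a negative log2 fold change, and the median was -0.18. Cct5 had 423, 444 and 453 CPM in IPRN libraries, against 529, 543 and 547 CPM in DMSO libraries, with an edgeR adjusted p of 0.0199. Cct3 had 392, 429 and 431 CPM in IPRN libraries, against 495, 513 and 517 CPM in DMSO libraries, with an edgeR adjusted p of 0.0319. In 6 of the 14, Tcp1, Cct2, Cct3, Cct4, Cct5 and Cct6a, all TRiC subunits named after their values were seen, IPRN lay below DMSO without overlap, which 14.7% of all genes tested did.

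Of 19 HSP90 partner genes, 2 fell and 1 rose, and the median log2 fold change was -0.07. Ppid, the cyclophilin 40 of HSP90 complexes, had 99.9, 112 and 108 CPM in IPRN libraries, against 137, 134 and 134 CPM in DMSO libraries (edgeR adjusted p = 0.0238). Chordc1, an HSP90-binding cochaperone, had 61.4, 66.9 and 62.7 CPM in IPRN libraries, against 79.3, 84.2 and 76.6 CPM in DMSO libraries (edgeR adjusted p = 0.0311). Stub1, the ubiquitin ligase CHIP that marks chaperone clients for breakdown, had 130, 124 and 133 CPM in IPRN libraries, against 97.7, 103 and 101 CPM in DMSO libraries. It rose by 0.35 ± 0.050 on the log2 scale (SE, edgeR adjusted p = 0.0163), but it overlaps Jmjd8 on the opposite strand, so its counts are uncertain.

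Of 8 genes listed with the nucleotide exchange factors, not all of which need act as one, 0 fell and 1 rose, with a median of 0.10. Bag6, which holds misplaced membrane proteins for breakdown, averaged 246 CPM in IPRN and 207 CPM in DMSO (edgeR adjusted p = 0.0278). Bag3, an HSF1-responsive partner of HSP70 in selective autophagy, averaged 75.9 CPM in IPRN and 68.8 CPM in DMSO and did not pass (edgeR adjusted p = 0.331).

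None of 17 J protein genes passed edgeR's test, where 13 of the 17 log2 fold changes were negative and the median was -0.14. Dnaja2, which had the smallest adjusted p of them, averaged 241 CPM in IPRN and 272 CPM in DMSO (edgeR adjusted p = 0.058). DESeq2 gave it 0.00498, and edgeR gave 0.0475 over genes with a mean of at least 50 counts. Dnaja1, the main constitutive partner of HSC70, averaged 229 CPM in IPRN and 278 CPM in DMSO (edgeR adjusted p = 0.081, DESeq2 adjusted p = 0.0112), but 24% of its 100-base runs occur in other genes.

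Of 7 small heat shock genes tested, 1 fell. Cryab, the αB-crystallin that holds unfolding proteins, had 9.61, 7.01 and 9.95 CPM in IPRN libraries, against 14.4, 16.5 and 15.1 CPM in DMSO libraries. Its log2 fold change was -0.79 ± 0.15 (SE, edgeR adjusted p = 0.0337), and it shares exon sequence with Hspb2 on the opposite strand. In direction this gene and the scarce Hspb1 were opposite, though only Cryab passed the test, and the difference between them was not tested.

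Of 7 other genes known to respond to HSF1, 1 fell and 6 had a negative log2 fold change, with a median of -0.33. Ier5, an immediate early gene whose product promotes HSF1 activity, averaged 207 CPM in IPRN and 269 CPM in DMSO, a log2 fold change of -0.38 ± 0.068 (SE, edgeR adjusted p = 0.0291). In the HSF family and its binding partners, 0 of 4 tested genes passed. Hsbp1, an HSF1-binding protein gene, averaged 96.8 CPM in IPRN and 87.4 CPM in DMSO (edgeR adjusted p = 0.24). Hsf2 averaged 28.3 CPM in IPRN and 27.99 CPM in DMSO (edgeR adjusted p = 0.953).

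**Figure D5:**
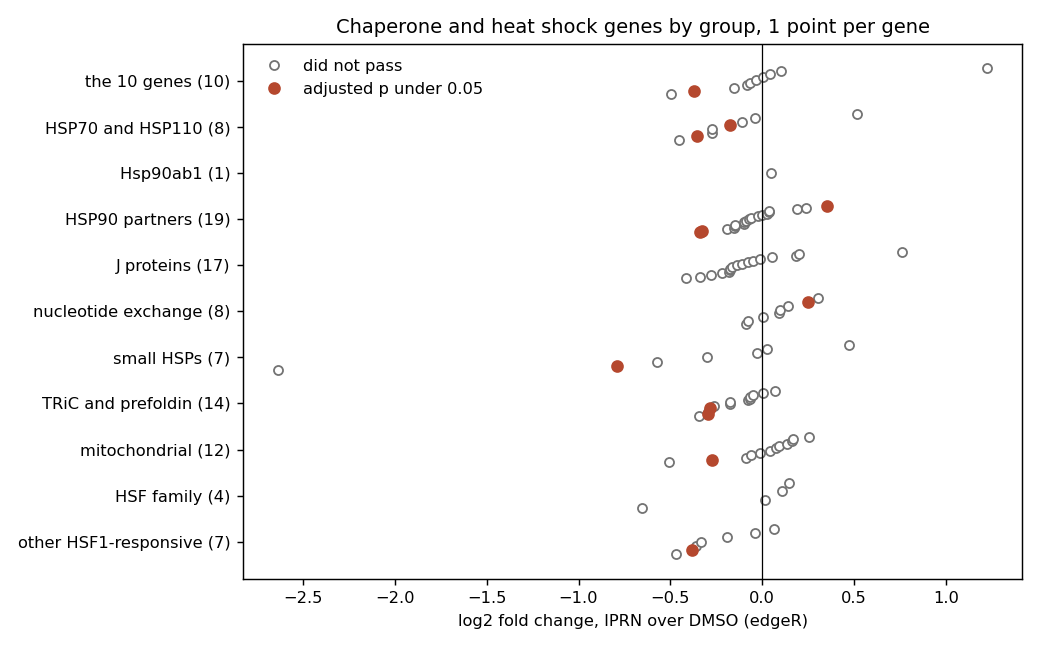
Log2 fold change, IPRN over DMSO, of the 10 genes and of the 97 tested genes of the wider lists, with 1 point per gene, the number tested in brackets and genes past an edgeR adjusted p of 0.05 filled. Filled points lie left of 0 except Stub1 among the HSP90 partners and Bag6 in the nucleotide exchange list.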

How the data were processed

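mRNA was captured on oligo(dT) beads, fragmented, primed with random hexamers and amplified, per the labels' protocols, in which no step marks the strand. The authors deposited 1 table per library holding, for each Ensembl gene, a whole-number count and an FPKM value, per the file headers. Counts carried no normalization and were tested, whereas the deposited FPKM values, scaled by length and library size, served to compare levels between genes. Cutadapt 1.9 is named in the submitters' processing notes. What aligner, counter, genome build and rule for multiply mapped reads were used is not given in the sources used here. Positions are on GRCm38, where 51920 of 55141 IDs (94.2%) found in GENCODE M21 had the same coordinates.

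Genes passing filterByExpr (minimum count 10) were fitted with edgeR 4.0.16 in R 4.3.3, with TMM normalization, group as the only term, the quasi-likelihood test and Benjamini-Hochberg adjustment over all genes, called at adjusted p under 0.05. Fold changes are IPRN over DMSO. DESeq2 1.42.0, other scalings and filters, left-out libraries, a replicate block and a liver-transcript term (Alb above 1 CPM) were alternatives. The fit was tested on simulated data. Replicates of a group differed beyond counting error, with a chi-square of 34.0 to 97.6 per degree of freedom.

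The genes and lists were chosen with earlier results of these data known. Named are all 10 genes, every called gene of each list or otherwise the one with the smallest adjusted p, 6 close relatives, and the 3 genes most like the member with the smallest adjusted p. Shared 100-base runs were found between GENCODE M21 transcripts. Promoter sequences are RefSeq's. Python 3.11.15 and pandas 2.3.3 were used.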

Additional observations from a re-analysis of the deposited data

How the results depend on the processing

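Across the 17 alternatives, Hsp90aa1 kept its direction (log2 -0.41 to -0.33) and its call in 11, with adjusted p between 2.32e-07 and 0.208. Over all genes 938 were called, and 621 were with no filter, 2312 with DESeq2, 429 with the liver-transcript term, 53 without DMSO 1 and IPRN 3 together, and 133 to 1047 with 1 library left out. Of the 10 genes, 1 was called lower, against 2 with DESeq2, 0 without DMSO 1 and IPRN 3, and 0 to 1 with 1 library left out. Their median of -0.048 ran between -0.12 (without IPRN 3) and -0.033 (without DMSO 2). Wider genes called lower numbered 9, against 20 with DESeq2, 0 with the liver term, 0 without DMSO 1 and IPRN 3, and 0 to 17 with 1 library left out. Those called higher numbered 2, against 4 with DESeq2, 1 with the liver term, 0 without DMSO 1 and IPRN 3, and 0 to 4 with 1 library left out. Same-numbered libraries did not deviate together (r of -0.081, 0.022 and -0.062), where pairs with different numbers had r between -0.068 and 0.116. The deviations are from a mean of 3 libraries, so these values cannot show whether same-numbered libraries were handled together. With replicate number as a block, 103 genes, 0 of the 10, and 1 wider gene lower and 0 higher were called, and Hsp90aa1 had an adjusted p of 0.079.

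Among the genes named, signs turned only in uncalled ones. With 1 library left out, the log2 value ran between -0.08 and 0.056 for Dnajb1, -0.15 and 0.018 for Hspe1, -0.07 and 0.037 for Hspa1b, -0.0084 and 0.13 for Hsph1, -0.13 and 0.22 for Hsf1, -0.065 and 0.10 for Hsf2, and -0.012 and 0.093 for Hsp90ab1. Dnajb1 was at -0.00025 with upper-quartile scaling. Without DMSO 1 and IPRN 3, Hspa1b was at 0.0075, Hsf1 at -0.078 and Hsp90ab1 at -0.033. Left-out libraries mean fewer samples, and the causes of the other changes were not tested. At 13 to 50 counts per library, depth limits Hspb1.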

Other observations

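Of 28 listed copies of the 10 genes, most of them annotated pseudogenes, 18 had a count in some library and 14 were tested. Gm12346, a copy of Hsp90aa1, had 44.0, 47.7 and 52.4 CPM in IPRN libraries, against 59.9, 63.9 and 62.7 CPM in DMSO libraries, and its edgeR adjusted p was 0.0419. Gm5844, another copy of Hsp90aa1, had 2.08, 2.32 and 2.30 CPM in IPRN libraries, against 9.66, 3.42 and 8.61 CPM in DMSO libraries, with a log2 fold change of -1.69 and an edgeR adjusted p of 0.0479. Hspd1-ps3 ranged between 20.9 and 41.0 CPM in IPRN libraries and between 29.2 and 67.1 CPM in DMSO libraries. Gm8355, a copy of Hspa8, ranged between 15.0 and 65.3 CPM in IPRN libraries and between 16.2 and 43.3 CPM in DMSO libraries, a spread of 4.35-fold within IPRN and 2.68-fold within DMSO. These 4 copies were named after their values were seen. For Gm12346 and Gm5844, how much of the count came from Hsp90aa1 transcripts was not tested.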
